A study of Homo sapiens with 3 samples.

Results

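Binding clusters of MATR3 (matrin 3) that the authors' tables place in introns or exons of long intergenic non-coding RNAs (lincRNAs) are described here. Members were all clusters of the classes lincRNA intron and lincRNA exon, without those named PVT1, NEAT1 or MALAT1. Replicates 1, 2 and 3 held 1713, 1671 and 1562 of them, or 4946 of 388807 clusters in all. Of these, 3962 were intron clusters and 984 were exon clusters. The cells were HEK293, an established human embryonic kidney line, of genotype HEK293-WT and with treatment given as None, and the labels name kidney as the tissue. One group of 3 biological replicates was made with an antibody against MATR3, and no control library was analysed, so comparisons run between classes of clusters and between replicates. PAR-CLIP crosslinks photoactivatable uridines to the bound protein, and a crosslinked uridine is read as C, which leaves T-to-C changes in the reads. A cluster is a stretch of overlapping reads with such changes, called in each replicate separately. The tables hold no expression levels, so the kidney label was not checked against marker genes, and reads in a cluster reflect both binding and the amount of the RNA, which cannot be told apart.

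LincRNAs are transcribed from their own genes between protein-coding genes, are usually spliced and polyadenylated, and often stay in the nucleus. Several carry small nucleolar RNAs or microRNAs in their introns, which are cut out of the primary transcript. MATR3 is an abundant protein of the nuclear matrix with tandem RNA recognition motifs. It binds pyrimidine-rich RNA, mostly in introns, and takes part in splicing repression.

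Shown first are the sequences of stretches that a lincRNA cluster covered in all 3 replicates. A stretch is the part shared by clusters that can be longer, so crosslinked positions can lie outside it. Reads given for a stretch are those of its whole clusters. There were 20 such stretches of at least 20 nt, under 16 gene names. The authors classed 16 as intron and 4 as exon, and the labels below follow their classes. GENCODE release 44 places the LINC00640 and LINC00641 stretches, classed as intron, in exons. They are written 5′ to 3′ in DNA letters, and capitals mark runs of at least 6 pyrimidines.

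SNHG17, intron, chr20:38424590-38424764, minus strand: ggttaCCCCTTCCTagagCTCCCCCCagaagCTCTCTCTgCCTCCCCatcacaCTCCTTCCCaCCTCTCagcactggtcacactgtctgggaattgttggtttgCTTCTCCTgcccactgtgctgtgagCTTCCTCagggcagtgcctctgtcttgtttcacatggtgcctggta
ZNF674-AS1, intron, chrX:46545779-46545850, plus strand: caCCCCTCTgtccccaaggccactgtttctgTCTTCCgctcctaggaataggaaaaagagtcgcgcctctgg
GS1-124K5.3, intron, chr7:66492843-66492864, minus strand: agcccaggggtaagcgaggaga
RP1-315G1.3, intron, chrX:123960855-123960893, minus strand: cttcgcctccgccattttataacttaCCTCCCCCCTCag
RP1-315G1.3, intron, chrX:123960200-123960230, minus strand: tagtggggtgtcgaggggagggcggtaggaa
HCG17, intron, chr6:30318417-30318439, minus strand: CTCTCTTgctcctactcctgtca
C22orf34, intron, chr22:49648679-49648706, minus strand: tgtactggggctgagtgctcgttggaga
LINC00640, intron, chr14:51352058-51352094, plus strand: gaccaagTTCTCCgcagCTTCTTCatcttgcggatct
LINC00641, intron, chr14:21204650-21204693, minus strand: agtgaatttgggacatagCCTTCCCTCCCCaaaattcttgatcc
CTD-2270P14.5, exon, chr16:2779409-2779440, plus strand: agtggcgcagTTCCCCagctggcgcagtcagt
RP11-631N16.2, exon, chr12:62620835-62620863, plus strand: CTTCTTCTgtgggaatcatgcttctgaag
RP11-1275H24.3, exon, chr7:5428853-5428873, plus strand: TTTTCTCCaaccggggtcccg

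The clusters at the SNHG17 stretch had the most reads of the 20, by geometric mean over replicates. They held 79, 236 and 95 reads in replicates 1, 2 and 3, from 31, 111 and 40 distinct reads. Their lengths were 175, 595 and 295 nt. The stretch is 175 nt long and 66.3% pyrimidine. In GENCODE release 44 it lies in an intron of SNHG17, the host gene of small nucleolar RNAs. A second SNHG17 stretch of 56 nt just upstream, at chr20:38424793-38424848, fell under the same clusters of replicates 2 and 3 and under a separate cluster of 10 reads in replicate 1. ZNF674-AS1 followed with 30, 70 and 92 reads. The stretch of CTD-2270P14.5 was the leading one in exons, with 12, 19 and 37 reads. The exon stretch of RP11-37B2.1, whose sequence is not shown, had 28, 15 and 13 reads. At RP11-631N16.2, the gene GENCODE calls MIRLET7IHG, the host of a let-7 microRNA, the reads were 30, 7 and 23. RP11-1275H24.3 was the weakest exon stretch, with 8, 7 and 6 reads. The highest replicate had at least 2 times the reads of the lowest at 17 of the 20 stretches, and the median ratio was 3.03. Cluster length also varied between replicates, and its part in these ratios was not tested.

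The stretches varied in composition. Their pyrimidine content ranged from 22.6% to 82.9% with a median of 59.5%, and 15 of 20 were more than 50% pyrimidine. A run of at least 6 pyrimidines was present in 13 and a run of at least 8 in 7. ATCTT, which is AUCUU in RNA and a motif MATR3 is known to bind, was present in 1 of 20, the LINC00640 stretch, where it is in lower case because an A opens it. Of the intron stretches, GS1-124K5.3 (in LINC00174 by GENCODE) and the second one of RP1-315G1.3 were purine-rich, at 22.7% and 22.6% pyrimidine. T made up 4.55% of the 22 nt of GS1-124K5.3, in clusters of 49, 73 and 145 nt. Each cluster held at least 2 conversion locations, each at a T, and not all of them lay in this stretch. RP1-315G1.3 is STAG2-AS1 in GENCODE, transcribed opposite the cohesin gene STAG2. The clusters at the stretches shown had 13, 57 and 16 reads and 13, 66 and 11 reads. They were 59, 165 and 39 nt and 44, 177 and 38 nt long. Another stretch there, not shown, had 10, 18 and 9 reads in its clusters and was 65.6% pyrimidine. In all, 6 of the 20 stretches lie opposite another GENCODE gene.

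**Figure D1:**
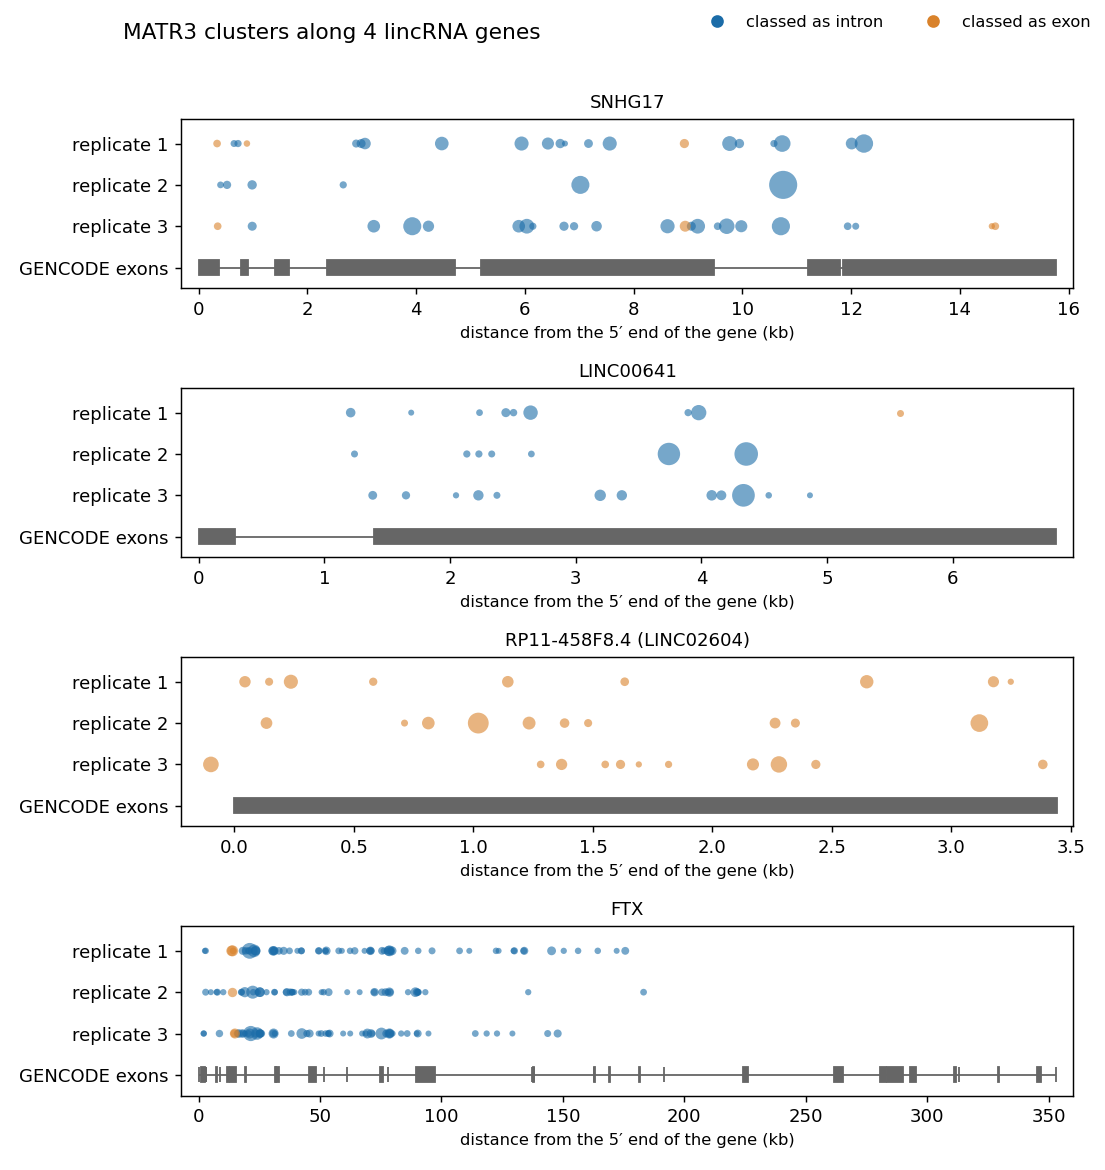
Clusters of each replicate along SNHG17, LINC00641, RP11-458F8.4 and FTX, by distance in kb from the 5′ end of the GENCODE gene, with circle area growing with the reads of a cluster (up to 236 in SNHG17), blue for clusters the authors classed as intron and orange for exon. Grey boxes are the union of GENCODE release 44 exons, which cover most blue clusters of SNHG17 and LINC00641.

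Few clusters returned at the same place. A cluster counted as found in a different replicate if any cluster of that library shared 1 nt or more with it on its strand. Of the 4946 lincRNA clusters, 960 (19.4%) were found in at least 1 other replicate, against 21.2% of all clusters in the tables. For clusters found in both other replicates the count was 102 (2.06%), against 2.49% of all clusters. Both shares were thus near those of all clusters. By subgroup, 693 of 3962 intron clusters (17.5%) and 267 of 984 exon clusters (27.1%) were found in at least 1 other replicate.

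Recurrence was also counted over gene names. The members carried 720 names, of which 211 (29.3%) had a member cluster in all 3 replicates, 155 in exactly 2 and 354 in 1. Over all gene names in the tables, 65.7% had a cluster in all 3 replicates. The median lincRNA name had 2 clusters in all, and 305 names had 1, which can be found in no more than 1 replicate. The 211 recurrent names held 82.3% of member clusters. Their reads correlated between replicates with Spearman's rho of 0.763 (replicates 1 and 2), 0.680 (1 and 3) and 0.681 (2 and 3), a description across names that share their libraries and gene lengths. Intron clusters were the only kind under 419 names, exon clusters under 186, and 115 names had both.

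Reads were concentrated in few lincRNAs. The 10 leading names held 26.2%, 29.6% and 27.8% of member reads, a mean of 27.9% ± 1.7 (SD, n = 3). Names led by their geometric mean share of the member reads over the 3 replicates, and values below are reads, or reads per 1000 lincRNA reads in the same replicate.

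C22orf34, an uncharacterised transcript that GENCODE calls MIR3667HG (chr22:49414524-49657542, minus strand), led in every replicate. It had 1023, 1607 and 922 reads in 51, 93 and 60 clusters, or 61.7 ± 17 reads per 1000 (SD, n = 3). Replicate 2 stood above the other two. Of its 204 clusters 185 were in introns, spread over 236 kb, and 51 (25%) were found in another replicate. Its most read cluster held 199 reads in replicate 1, 138 in replicate 2 and 55 in replicate 3, at a different place each time.

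Both leading small nucleolar RNA hosts had most of their clusters classed as intron by the authors. LRRC75A-AS1, now SNHG29 (chr17:16438767-16480249, plus strand), had 609, 1014 and 616 reads, with replicate 2 again the highest, and 38.9 ± 11 reads per 1000 (SD, n = 3). Its clusters were dense, 111 within 29.3 kb, and 44 (39.6%) were found in another replicate. SNHG17 (chr20:38419638-38435409, minus strand) had 677, 384 and 798 reads and 32.9 ± 13 reads per 1000 (SD, n = 3). Here replicate 2 was the lowest, and 61.5% of its reads there lay in the single cluster that spans the sequence shown above. The authors classed 43 of the 50 SNHG17 clusters as intron, whereas the midpoints of 35 of the 50 lie in a GENCODE release 44 exon.

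FTX and JPX, lincRNAs of the X-inactivation centre, were the leading names on the X chromosome. FTX had 794, 520 and 754 reads in 61, 48 and 56 clusters, or 36.3 ± 8.7 reads per 1000 (SD, n = 3). Of its 165 clusters, 143 lay within 100 kb of the 5′ end of a gene of 353 kb. JPX, transcribed from the opposite strand, was the most even of the 12 leading names, with 252, 276 and 236 reads and 13.3 ± 0.65 reads per 1000 (SD, n = 3). Their clusters were rich in T, at 34.2% ± 1.6 in FTX and 36.3% ± 1.9 in JPX (SD, n = 3), and had the lowest conversion per T of the 12, 9.89% ± 0.070 and 8.96% ± 0.10 (SD, n = 3).

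Among the other names, HCG17, a transcript of the major histocompatibility complex region, had 570, 540 and 366 reads. MIRLET7BHG, the host of let-7 microRNAs, had 352, 317 and 183 reads in 78 clusters and the highest conversion per T of the 12, 15.6% ± 1.0 (SD, n = 3). Its clusters also had the lowest T content of the 12, 22.6% ± 1.2 (SD, n = 3). LINC00640 had 211, 305 and 262 reads. LINC00641 had 208, 358 and 352 reads in 28 clusters within 4.43 kb, and 25 of the 28 lie in a GENCODE exon although 27 were classed as intron. RP11-244M2.1, the microRNA host MIR924HG, was the opposite case. Its 260, 305 and 162 reads lay in 89 clusters over 481 kb, none with more than 19 reads, and 2 of the 89 were found in another replicate.

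**Figure D2:**
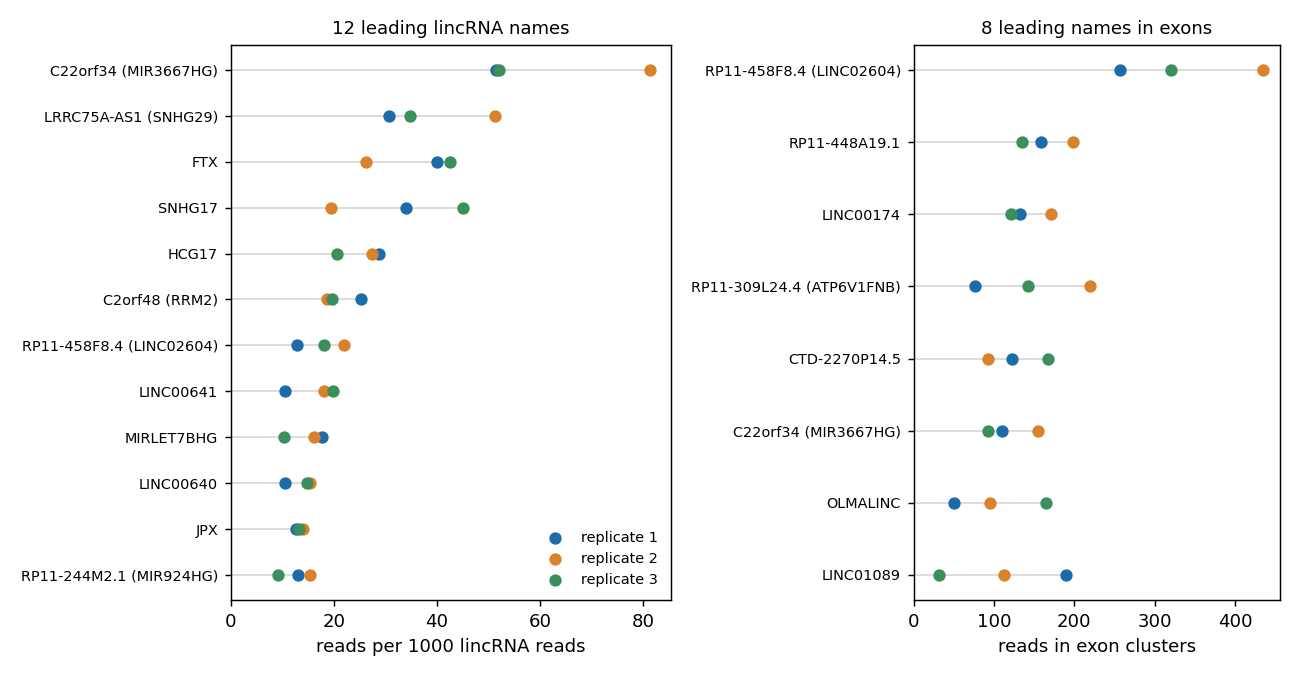
Left, reads per 1000 lincRNA reads for the 12 leading names; right, reads in exon clusters for the 8 leading names in exons, each point a replicate and the GENCODE name in brackets where it differs. C22orf34 lies highest in all 3 replicates on the left, and RP11-458F8.4 on the right.

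C2orf48 needs a caution about its label. It ranked sixth with 503, 367 and 349 reads, yet all 100 of its clusters lie within RRM2 in GENCODE release 44. RRM2 is protein coding and makes the small subunit of ribonucleotide reductase. Likewise the clusters of RP11-309L24.4 lie in the protein-coding gene ATP6V1FNB. In all, 38 of the 720 names were placed in a GENCODE protein-coding gene. Over all members, 88.6% ± 1.6 of intron clusters and 91.4% ± 2.6 of exon clusters had their midpoint in a GENCODE lncRNA gene (SD, n = 3). A protein-coding gene on the same strand covered 13.6% ± 1.3 and 11.6% ± 3.1 (SD, n = 3), and a cluster can fall in both kinds of gene.

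In exons, RP11-458F8.4 led. GENCODE calls it LINC02604, a single 3.44 kb stretch at chr7:66902857-66906297 on the plus strand. Its exon clusters had 257, 435 and 320 reads in 9, 10 and 11 clusters, and it had no intron cluster. Clusters were spread along it in the plot of clusters along genes, with gaps, and 17 of 30 (56.7%) were found in another replicate. RP11-448A19.1 (chr7:129604548-129611671) had 158, 198 and 135 reads, all in exon clusters. Clusters named LINC00174 had 132, 171 and 121 reads, all in exon clusters within 3.18 kb of that gene (chr7:66376044-66493566). The name GS1-124K5.3 falls in the same GENCODE gene, with 44, 36 and 82 reads in 7 intron and 4 exon clusters. RP11-309L24.4 varied more, at 76, 220 and 143 exon reads. CTD-2270P14.5 had 123, 93 and 167 exon reads, and 12 of its 19 clusters (63.2%) were found in another replicate, the largest share among the 18 names listed for introns or exons. C22orf34 had 110, 155 and 93 reads in exons. OLMALINC, a lincRNA known from oligodendrocytes, had 50, 95 and 165, with 71 of its 95 reads of replicate 2 in 1 cluster. LINC01089 had 190, 113 and 32, and in replicate 2 all of its reads came from 1 cluster. Of 301 names with any exon cluster, 68 had one in all 3 replicates.

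Lists of known lincRNAs were then counted. Of 24 small nucleolar RNA hosts, 11 had a member cluster and 8 had one in all 3 replicates. Over all lincRNA names with a member cluster the share in all 3 was 29.3%, and over all names with a cluster of any class it was 65.7%, beside which the 8 of 11 and the counts of the lists below are to be read. These were LRRC75A-AS1, SNHG17, DANCR, SNHG16, SNHG11, GAS5, SNHG15 and SNHG6. After the leading pair, DANCR had 27, 180 and 101 reads, GAS5, a growth-arrest transcript, had 34, 43 and 18, and SNHG15 had 46, 21 and 22, all in exons. SNHG11 ranged from 11 and 8 reads to 77. SNHG16 had 54, 30 and 32 reads and SNHG6 33, 24 and 10. The list has 3 further hosts with a member cluster in 1 or 2 replicates, 6 with clusters of another class only, and 7 without a cluster.

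Of 21 listed microRNA hosts, 5 had member clusters, and each of the 5 had them in all 3 replicates (against 29.3% of lincRNA names and 65.7% of all names). The list is not complete, since members fell in 22 genes that GENCODE names as microRNA hosts, 17 of them in all 3 replicates, C22orf34, RP11-244M2.1 and MIR222HG among them. MIRLET7BHG is given above. MIR181A1HG had 260, 151 and 186 reads, MIR17HG, the host of the miR-17-92 cluster, had 74, 128 and 66, and MIR99AHG had 107, 22 and 56. MIR22HG had 70, 77 and 9 reads, all in exon clusters. Their spread between replicates reached several-fold in MIR99AHG and MIR22HG.

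Of 24 entries for lincRNAs of chromatin regulation and imprinting, 8 had member clusters. Of these 8, 5 had them in all 3 replicates (20.8% of all entries). The 29.3% of lincRNA names counts only names with a member cluster, so 5 of 8 is the count to set beside it. The 65.7% of all names is over names with a cluster of any class. FTX and JPX led. LINC-PINT, a transcript induced by p53, was named AC058791.1 and RP11-138A9.1 in the tables and had 236, 219 and 183 reads. MIAT, known from neurons and heart, had 42, 25 and 11 reads, all in exons. CASC15 had 21, 7 and 36. Of 33 entries for growth and stress lincRNAs, 8 had member clusters. Of these 8, 4 had them in all 3 replicates (12.1% of all entries), and 4 of 8 is again the count to set beside 29.3%. LINC01021, the p53-regulated PURPL, had 84, 163 and 393 reads, TINCR had 100, 115 and 36, CRNDE had 81, 60 and 55, and LINC00511 had 6, 5 and 15. Entries include older synonyms, and absence of a cluster can follow from low expression, which was not measured.

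The share of reads in exons was compared with the share of clusters. Exons held 19.4%, 19.2% and 21.3% of member clusters and 22.5%, 22.0% and 23.4% of member reads. The share of reads exceeded that of clusters in each replicate, by 2.68 percentage points ± 0.51 (SD, n = 3). In replicate 3 a single exon cluster, that of CTD-2619J13.13 (LINC02560), held 314 reads, and without it the excess there was 0.780 points instead of 2.11, for a mean of 2.24 ± 1.3 (SD, n = 3). By GENCODE exons the excess was 4.77 points ± 0.70 (SD, n = 3). An exact two-sided sign-flip test over the 3 replicates gave p = 0.25, the smallest it can give. The same exact p-value applies to all 10 such planned differences, with adjusted p = 0.25 in the exact test throughout, so none can pass 0.05. The comparisons below are therefore described by their size, spread and direction in each replicate.

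Per length of annotated sequence, exons were the denser. Over the 676 GENCODE lncRNA genes that held a member, exons had 115, 110 and 122 clusters per Mb and introns 16.7, 16.4 and 14.9. The ratio was 7.28 ± 0.81 (SD, n = 3). Because a gene entered by holding a cluster, genes were also taken from 1 replicate and counted in the other two, and the ratio was then 5.64 ± 0.67 (SD, n = 3). Here exon and intron follow GENCODE release 44, in which 11.1% ± 1.5 of the authors' intron members and 97.4% ± 0.21 of their exon members lie in an exon (SD, n = 3).

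Exon clusters were also found more often in another replicate. The mean share here is the share found in a given other replicate, averaged over the other replicates. It therefore lies below the share found in at least 1 other replicate, which was used above. It was 14.0%, 15.8% and 14.6% for lincRNA exons and 9.20%, 10% and 10% for lincRNA introns. The difference was 5.06 points ± 0.61 (SD, n = 3), and the groups did not overlap. In the mRNA exonic classes, untranslated and coding together, the mean share was 13.5%, 12.6% and 12.9%. In mRNA introns it was 11.8%, 11.8% and 12.4%, so exonic clusters returned more often than intron clusters in mRNAs too. Found in neither other replicate were 72.9% ± 0.86 of lincRNA exon and 82.5% ± 0.94 of lincRNA intron clusters (SD, n = 3). For clusters found in both others the shares were 1.51%, 3.44% and 2.41% in exons and 1.96%, 1.92% and 2.03% in introns, lower in exons in replicate 1. The difference in the mean share was 2.49 points ± 0.37 where the shared stretch had to span 50% or more of each cluster. Exon clusters were longer, with a median of 39.3 nt ± 2.9 against 36.7 nt ± 1.5 (SD, n = 3). They had a median of 9.33 reads against 8, and those with at most 2 distinct reads made up 34.5% ± 9.6 of exon and 43.2% ± 7.8 of intron clusters (SD, n = 3). With at least 3 distinct reads required, the difference was 5.16 points ± 0.61 (SD, n = 3). The part of cluster length in it was not tested.

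**Figure D3:**
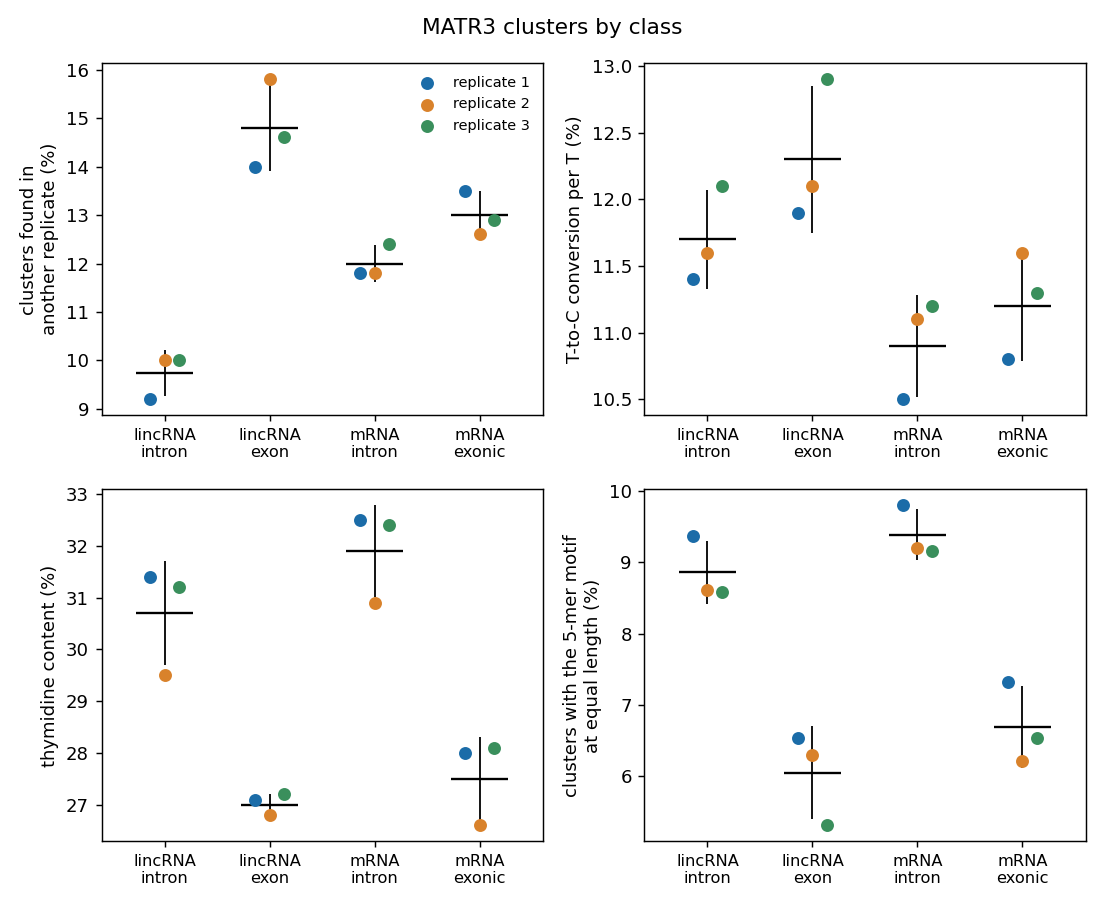
For lincRNA introns and exons and for the mRNA intron and mRNA exonic classes, the mean share of clusters found in another replicate, the conversion per T, the T content, and the share with the 5-mer ATCTT at equal length, all in percent and on axes that do not start at 0. Points are replicates, and the bars are the mean and SD of 3 replicates; lincRNA introns lie below mRNA introns in recurrence and above them in conversion in every replicate.

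Compared with introns of protein-coding genes, lincRNA introns held clusters that returned less often. The same mean share, averaged over the other replicates, was 11.8%, 11.8% and 12.4% in the authors' mRNA intron class. In that class 95.6% ± 0.12 of clusters carried the name of a GENCODE protein-coding gene (SD, n = 3). LincRNA introns were lower by a difference of -2.27 points ± 0.48 (SD, n = 3), negative in each replicate. Clusters with at most 2 distinct reads were more frequent in lincRNA introns, 43.2% ± 7.8 against 34.8% ± 5.0 (SD, n = 3). With at least 3 distinct reads required, the difference was -0.939 points ± 0.49 (SD, n = 3). With PVT1, NEAT1 and MALAT1 kept in, it was -0.652 points ± 0.37 (SD, n = 3).

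Conversion was measured per T, as conversion events over all T positions read, summed over the clusters of a class. It was 11.4%, 11.6% and 12.1% in lincRNA introns and 10.5%, 11.1% and 11.2% in mRNA introns. The difference of 0.806 points ± 0.27 was positive in each replicate (SD, n = 3). Taken at an equal number of T per cluster it was 0.520 points ± 0.18, and with at least 3 distinct reads required 0.394 points ± 0.18 (SD, n = 3). Counted by reads that carry T-to-C, it was 0.379 points ± 2.2 and positive in 2 of 3 replicates (SD, n = 3). In lincRNA exons it was 11.9%, 12.1% and 12.9%, above the mRNA exonic classes at 10.8%, 11.6% and 11.3% by 1.07 points ± 0.56 (SD, n = 3). That difference was 0.609 points ± 0.50 with the 3 names kept in and 0.651 points ± 0.62 by GENCODE exons (SD, n = 3), the latter positive in 2 of 3 replicates. Deposited clusters held at least 2 conversion locations, so conversion per T has a floor that is higher where reads or T are few. The part of this floor in the differences between classes was not tested.

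Between lincRNA exons and introns the difference in conversion depended on how it was measured. Exons were 0.579 points ± 0.18 higher (SD, n = 3), in each of the 3 replicates. At an equal number of T per cluster the difference was 0.111 points ± 0.11, positive in 2 of 3 replicates, and with exons taken from GENCODE it was 0.0513 points ± 0.42, positive in 1 of 3 (SD, n = 3). With PVT1, NEAT1 and MALAT1 kept in it was 0.261 points ± 0.28 (SD, n = 3). Counted as the share of reads with a T-to-C change, it reversed, to 83.5% ± 0.87 in exons and 87.8% ± 2.7 in introns, or -4.29 points ± 2.3 (SD, n = 3).

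The base composition of the subgroups differed. T made up 31.4%, 29.5% and 31.2% of the bases of lincRNA intron clusters and 27.1%, 26.8% and 27.2% of exon clusters, a difference of -3.64 points ± 0.83 (SD, n = 3) without overlap. Exon clusters were richer in G+C by 5.57 points ± 1.0 (SD, n = 3), a comparison added after seeing the data. The flanking windows of the next paragraph differed in the same direction. T made up 29.9% ± 0.46 of windows beside intron clusters and 26.6% ± 0.28 beside exon clusters (SD, n = 3). Their G+C was 45.9% ± 0.85 and 51.7% ± 0.24 (SD, n = 3). In mRNA intron and exonic clusters T was 31.9% ± 0.88 and 27.5% ± 0.81 (SD, n = 3). G+C there was 47.2% ± 0.72 and 52.4% ± 0.74 (SD, n = 3). How far the surrounding sequence accounts for the lincRNA differences was not tested. LincRNA introns held less T than mRNA introns by -1.24 points ± 0.15 (SD, n = 3), negative in each replicate. At equal cluster length, ATCTT was present in 9.37%, 8.61% and 8.59% of lincRNA intron clusters and in 6.53%, 6.30% and 5.31% of exon clusters. Exons were lower by -2.81 points ± 0.49 (SD, n = 3). The exon shares rest on 23, 21 and 19 clusters with ATCTT, and the intron shares on 127, 115 and 105. At equal length the mRNA classes held it in 9.39% ± 0.36 of intron and 6.69% ± 0.57 of exonic clusters (SD, n = 3). Between lincRNA and mRNA introns the difference was -0.529 points ± 0.082 (SD, n = 3), and without the single name C22orf34 it was -0.151 points ± 0.033. It was -1.33 points for clusters at or above the median in reads, -1.75 for 3 or more conversion locations and -1.08 with the 3 names kept in.

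Set beside windows of the same length 200 nt to either side, lincRNA clusters were richer in pyrimidines. Of intron clusters, 35.9% ± 0.89 held a run of at least 8 pyrimidines, against 22.5% ± 0.96 of flanking windows, a difference of 13.4 points ± 0.45 (SD, n = 3). In exons the shares were 33.7% ± 2.6 and 25.6% ± 1.8, a difference of 8.18 points ± 0.89 (SD, n = 3), and in mRNA introns the difference was 12.4 points ± 1.6 (SD, n = 3). ATCTT was present in 8.75% ± 0.39 of lincRNA intron clusters and 6.39% ± 0.62 of their flanks, and in 6.40% ± 0.62 of exon clusters and 4.82% ± 1.2 of theirs (SD, n = 3). Flanking windows of exon clusters can reach into introns. Every one of these differences had the same sign in all 3 replicates. Deposited clusters held at least 2 conversion locations, each at a T, whereas flanking windows had no such requirement. The part of this requirement in the differences was not tested.

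**Figure D4:**
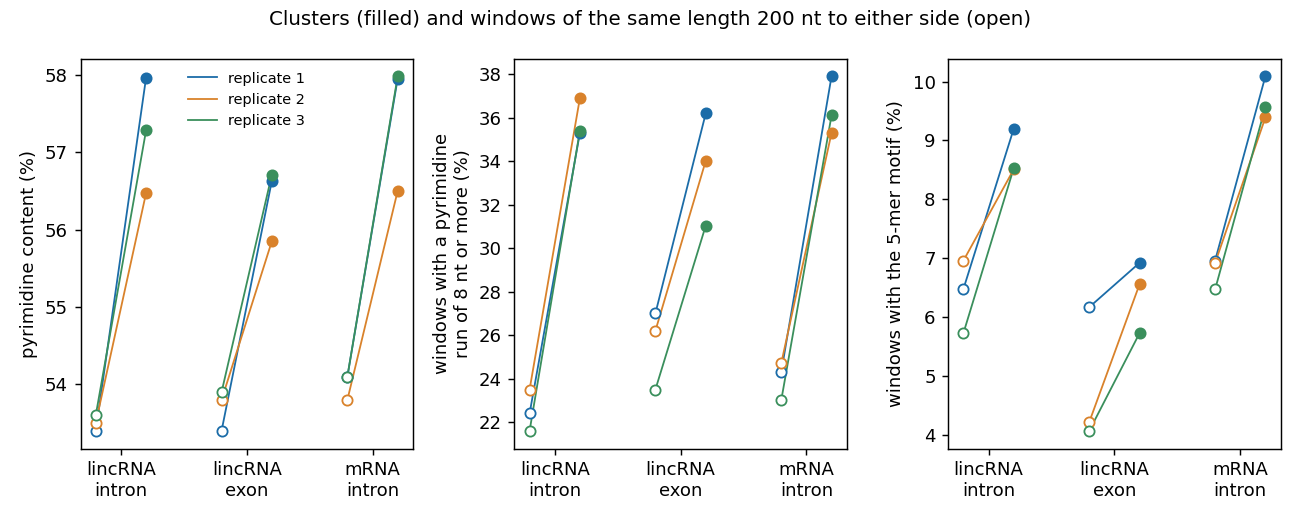
Pyrimidine content, share with a pyrimidine run of at least 8 nt and share with the 5-mer ATCTT, all in percent, in clusters (filled) and in windows of equal length 200 nt to either side (open), with a line for each replicate; the axes do not start at 0. Filled points lie above open ones in all 3 classes and all 3 replicates, most steeply for the pyrimidine runs in introns.

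Of all 5-mers held by at least 60 lincRNA intron clusters, 805 in number, CTTCT gained most over the flanks, by 0.92 ± 0.09 on the log2 scale (SD, n = 3), followed by TCCTT at 0.82 ± 0.08 and TCTTC at 0.81 ± 0.06. These are made of pyrimidines only and each holds T, so the requirement of T in clusters bears on their gains too. ATCTT ranked 57 of 805, at 0.46 ± 0.15 (SD, n = 3). In exons 212 5-mers could be ranked and the spread was larger. CATCC led at 0.80 ± 0.39, TCTTC followed at 0.79 ± 0.32, and ATCTT ranked 35 at 0.45 ± 0.24 (SD, n = 3). GGGAC and GTGGG, with 1 pyrimidine each, ranked 5 and 7 at 0.70 ± 0.19 and 0.67 ± 0.08 (SD, n = 3). The others of the first 10 in exons held 4 or 5 pyrimidines.

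LincRNA intron clusters were placed unevenly over the chromosomes. The X chromosome held 13.7%, 13.8% and 13.7% of them, against 3.49%, 3.50% and 3.73% of mRNA intron clusters, and 2.71%, 2.81% and 3.01% of lincRNA exon clusters. The difference between lincRNA and mRNA introns was 10.2 points ± 0.13 (SD, n = 3), chosen after its values were seen. FTX, JPX, LINC00630, MIR222HG and DANT2 led on the X chromosome, the latter 3 with 58, 54 and 51 clusters over the 3 replicates. Chromosome 22 held 8.98% ± 1.4 of members against 2.93% ± 0.11 of mRNA intron clusters (SD, n = 3), led by C22orf34 and MIRLET7BHG. The lengths of lincRNA introns on each chromosome were not set against these shares. The sequences of 11 member clusters occur more than once in the genome, all of them named LINC00106.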

How the data were processed

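PAR-CLIP with an antibody against MATR3 was measured in 3 HEK293 libraries. Per the file headers, the authors deposited 1 table of clusters for each, with whole counts of reads, distinct reads, conversion locations and conversion events per cluster, not normalised, and the fraction of reads with T-to-C. The build is hg38, per the submitters' processing notes, and all 316604 clusters compared matched it letter for letter. The aligner, cluster caller and annotation release are not given in the sources used here. Deposited clusters had at least 4 reads, 2 conversion locations and 20 nt. Whole tables held 1649124, 1506682 and 1532602 reads, and members 19862, 19743 and 17704. Reads carry no molecular identifiers, so counts may include copies of 1 molecule, and counting error at sites of few reads is large.

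Overlaps, conversion, base composition and 5-mers were computed with Python 3.11.15, pandas 2.3.3 and numpy 2.4.6, and the code was tested on simulated data. Equal length means weighting to the lengths of lincRNA clusters in bins with edges at 20, 30, 40, 50, 70 and 100 nt and above. 5-mer gains are log2 ratios of the number of clusters to the number of flanking windows holding a 5-mer, with 1 added to both. Shared sequences were read from the deposited tables. Genes were placed with GENCODE release 44 by cluster midpoint and strand, and 718 of 720 names fell in a gene there. Differences between classes were tested over replicates with exact two-sided sign-flip tests, with Benjamini-Hochberg adjustment over 10. Named were the 12 leading names, the 8 leading in exons, members of 4 lists found in all 3 replicates, and the leading shared stretches (the first 8 in introns and all in exons); those of LINC00640 and LINC00641 were shown after their values were seen. Members and lists were chosen with earlier results of these data known. Alternatives were stricter cluster sets, other measures of conversion and overlap, leaving out each replicate, keeping the 3 names left out, and dropping the leading name. Added after seeing the data were the flanks, GENCODE exons, clusters in lncRNA genes alone, conversion at an equal number of T, and leaving out CTD-2619J13.13.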

Additional observations from a re-analysis of the deposited data

Results flagged for a closer look

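Clusters that cross a lincRNA exon-intron boundary form 2 classes of their own in the tables and were not members. They numbered 41, 40 and 38 in the 3 replicates and held 725, 669 and 722 reads, a mean of 705, and no control library was analysed against which to set them.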

How the results depend on the processing

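Of 116 recomputed differences, 115 kept the sign of their mean, and in 6 not every replicate kept the reported sign. The 1 reversal was the lincRNA exon minus intron conversion counted by reads that carry T-to-C, at -4.29 points. The recurrence of lincRNA minus mRNA introns was -1.08 points at or above the median reads. The exon share of lincRNA clusters (19.9%) was 22.1% for clusters at or above their replicate's median in reads, 22.6% if 3 or more conversion locations were required, 22.3% for 3 or more distinct reads, 18.2% with PVT1, NEAT1 and MALAT1 kept in, and 28.3% by GENCODE exons. Names found in all 3 replicates (211) numbered 126, 113 and 147 under the same 3 stricter sets, and 125 with at least 2 clusters per replicate. The share of reads in the 10 leading names (27.9%) was 33.2%, 36.5% and 33.4% under those sets, 38.3% with the 3 names kept in, 24.6% without C22orf34, and 31.2% in lncRNA genes alone. Leaving out each replicate in turn moved these to 19.3 to 20.3%, 256 to 272 names found in both remaining replicates, and 27.0 to 28.8%. Depth limits single sites, since the median intron cluster has 8 reads from 3 distinct reads.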
